A study of Brassica napus with 6 samples.

Results

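The miR171 family was followed through small RNA and degradome libraries of Brassica napus (oilseed rape) shoot apices. Members were chosen by name: the rows of the known miRNA files numbered as miR171, and every degradome record whose miRNA name carries that number. In the small RNA files these were 3 of 74 known miRNAs, and of 401 listed in all: bna-miR171h, bna-miR171gf and bna-miR171i. In the degradome they were 20 of 554 records in the rod-like library and 24 of 535 records in the normal library.

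The study set rod-like plants, a form that the labels name without describing it, against normal plants from the same field, with the shoot apex taken at early bolting from plants 3 months old. Each RNA sample pooled 6 plants. There were 2 small RNA files for rod-like and 2 for normal apices, and 1 degradome library for each plant type, and the labels give no strain, allele or treatment. The title names plant architecture as the subject. Whether the degradome RNA came from the same pools as the small RNA is not given. The title of the rod-like degradome carries the number 3, and those of the rod-like small RNA carry 1 and 2. That of the normal degradome carries none. The files hold no protein-coding marker levels against which the labelled tissue could be checked.

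MicroRNAs of the miR171 family are conserved in land plants and guide the cutting of messages of the HAIRY MERISTEM (HAM) branch of GRAS transcription factors. In Arabidopsis, HAM proteins keep stem cells of the shoot tip undifferentiated, and plants that overproduce miR171 form fewer branches. A degradome library captures the free 5′ ends left when a message is cut, which fall opposite the middle of the paired miRNA.

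The degradome listed its miR171 records under 2 names borrowed from relatives, bra-miR171e (Brassica rapa) and mtr-miR171b (Medicago truncatula), and held 0 records under a bna-miR171 name. The sequences are shown because they decide which sites pair fully, as the files print them 5′ to 3′ with T for U and with the seed, bases 2 to 8, in capitals.
bra-miR171e: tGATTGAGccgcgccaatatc
mtr-miR171b: tGATTGAGccgcgtcaatatc
Both are 21 nt long, share the seed and differ by the single substitution C14T, counted from the 5′ end with the bra-miR171e base first. No other miRNA name in the degradome shared that seed (0 records). Sequences of bna-miR171h, bna-miR171gf and bna-miR171i were not used here, so the abundances and the cleavage records are joined by family only.

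Across both libraries 12 target transcripts were listed, and their sites took 3 forms, shown because the forms split the targets by pairing and by library. Capitals mark the bases at which the forms differ, 5′ to 3′ in the target.
site form 1: gatattgGcGcggctcaatca
site form 2: gatattgAcGcggctcaatca
site form 3: gatattgTcAcggctcaatca
Form 1 was carried by 8 targets, and forms 2 and 3 by 2 targets each. Counted from the 5′ end of the site, form 2 differs from form 1 by G8A, and form 3 differs by G8T and G10A. These bases lie opposite bases 14 and 12 of the miRNA, so the stretch opposite the seed was the same in all 12 targets.

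Form 1 paired with bra-miR171e at all 21 bases, for an alignment score of 0, in which lower means closer pairing. With mtr-miR171b it made 20 pairs and a G:U pair at base 14, for a score of 0.5. Form 2 reversed this order: it paired fully with mtr-miR171b (score 0) and had a mismatch at base 14 with bra-miR171e (score 1). Form 3 was mismatched to both names at bases 12 and 14 and scored 2 with each. All 44 records were ungapped.

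Form 1 was listed at position 832 of BnaA03g21080D, 721 of BnaA04g01210D and 835 of BnaA07g37990D. It stood at position 718 of both BnaAnng18540D and BnaAnng18550D. On the C side it was listed at 721 of BnaC03g25140D, 733 of BnaC04g22080D and 823 of BnaCnng57010D. The form 1 sites thus lay in a group from 718 to 733 and a group from 823 to 835 nt of their transcripts. Form 3 was listed at 499 of BnaA07g01720D and 505 of BnaC07g03310D, and form 2 at 391 of BnaC08g22790D and 3 nt further along BnaA09g31980D, in each case 1 A-genome and 1 C-genome identifier. Brassica napus carries the A genome of B. rapa and the C genome of B. oleracea, and the letter after Bna in an identifier names the genome. By that letter 7 targets lay on A and 5 on C. None of the 12 identifiers (0) matched the RefSeq gene table, so no gene name or GRAS membership is given to them.

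**Figure D1:**
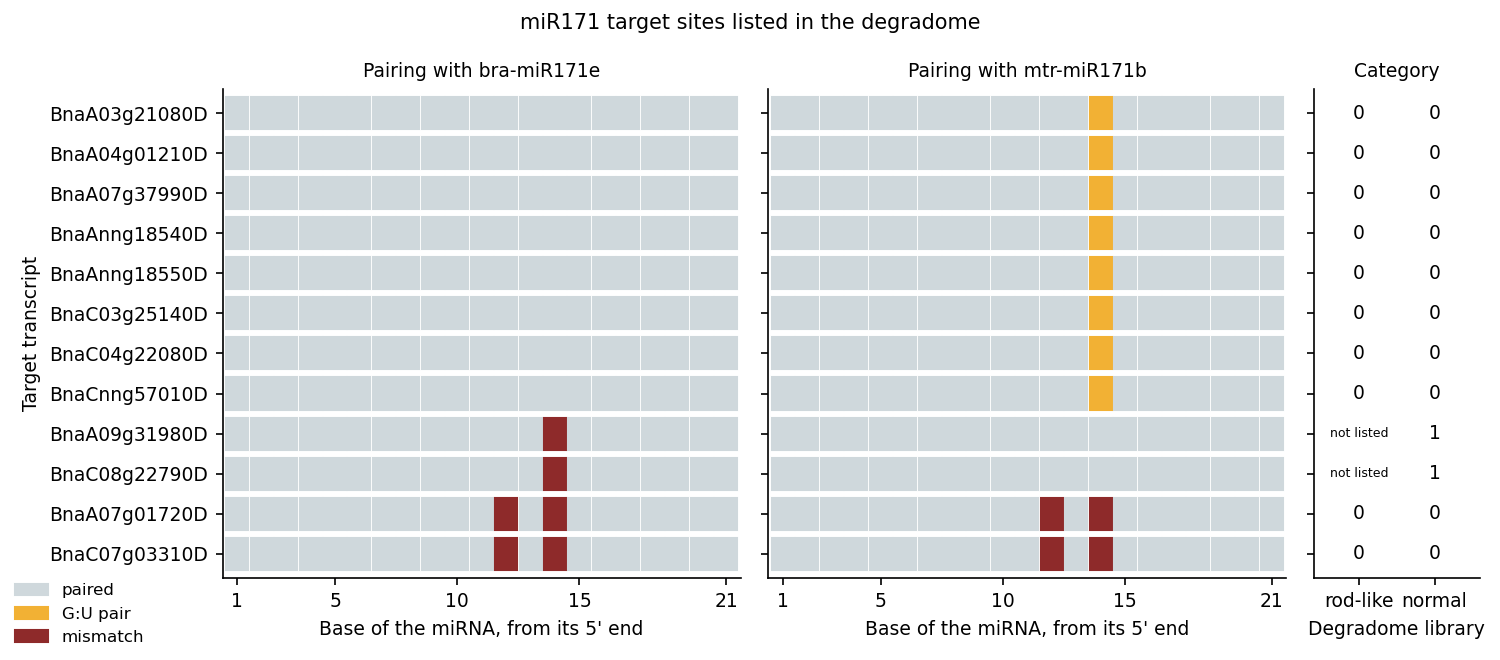
Pairing of each of the 12 target sites (rows) with bra-miR171e and mtr-miR171b at each of the 21 miRNA bases (columns), with the category in each degradome library at the right. Grey marks a pair, yellow a G:U pair and red a mismatch, and departures from full pairing fall at bases 12 and 14. The 2 targets with a mismatch at base 14 alone to bra-miR171e are those not listed in the rod-like library.

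The rod-like library listed 10 miR171 targets and the normal library listed 12, and the 10 were in both. That is 10 of 10 rod-like targets and 10 of 12 normal targets. The 2 listed in the normal library alone, BnaA09g31980D and BnaC08g22790D, were the carriers of site form 2. Their 4 records were in category 1, whereas the other 20 records of the normal library and all 20 of the rod-like library were in category 0. Categories run from 0 to 3, with lower numbers taken here as stronger evidence, and how they were defined is not given in the sources used here. Each library is 1 sample, so the listing has no replicate check and no test between plant types was made.

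Counted as pairs of miRNA name and target, 20 of 24 were shared by the libraries, or 83.3% (Clopper-Pearson 95% interval 62.6 to 95.3). In category 0 alone all 20 of 20 were shared (83.2 to 100). The interval treats pairs as independent, although both names were listed at every site and 12 sites underlie the 24 pairs. For other named miRNAs, 206 of 223 category 0 pairs of the normal library, 92.4% (88.1 to 95.5), were listed again in the rod-like library. In category 1 the count was 0 of 4 for miR171 and 15 of 20, or 75.0% (50.9 to 91.3), for the other names. In category 2, which held no miR171 record (0), it was 0 of 49 for the other names (0 to 7.25%), and in category 3 it was 1 of 2. With 2 sites behind these 4 pairs, the miR171 share in category 1 has an interval of 0 to 60.2%.

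The target caller's P-value stood at 0 in all 20 rod-like records and in 22 of 24 normal records. The remaining records, mtr-miR171b on BnaC07g03310D and on BnaCnng57010D, both in the normal library, were at 0.002, where the highest value listed in either library was 0.048. The median score of miR171 records was 0.5 in each library, against 2 over the records of other named families in each library. Of all records with a score of 0, miR171 held 8 of 13 in the rod-like and 10 of 12 in the normal library. No family with at least 5 listed sites (15 families) had a lower median score over both libraries than miR171. No miRNA outside the family was listed on any of the 12 transcripts (0 records), and none lay within 1 nt of a miR171 position.

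All 12 miR171 positions left a remainder of 1 when divided by 3, so every listed cut fell at the same place within a count of triplets from the transcript's first base. Over all 617 listed sites, 31.4% had this remainder, and 41 of 245 sites of other named families did. The families miR160, miR164 and miR166 were also each at a single remainder, with 6, 9 and 9 sites, whereas the miR156 sites were spread as 33, 5 and 35 and the miR169 sites as 2, 5 and 8 over remainders 0, 1 and 2. In all, 8 of the 15 families with at least 5 sites were at 1 remainder. Whether the authors' transcripts begin at the start codon is not given, and homologous targets are not independent points.

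In the small RNA files, counts over all listed miRNAs summed to 712169 and 713637 in rod-like and to 625795 and 629101 in normal files, which is not the full sequencing depth. Within a plant type the files agreed within sampling noise: chi-square divided by its degrees of freedom was 1.05 over 397 miRNAs for rod-like (p = 0.246) and 0.885 over 396 for normal (p = 0.952). They were therefore counted as 1 sample of each type, and the tests below compare these libraries, not the plant types. Levels are given as TMM-scaled reads per 1000000 listed miRNA reads (RPM), and intervals cover counting error only.

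With TMM scaling on all miRNAs, the 3 miR171 forms had higher levels in the rod-like files, whereas with scaling on known miRNAs alone bna-miR171gf and bna-miR171i did not. The largest difference of the 3 was that of bna-miR171h. For bna-miR171h, 502 and 487 reads were counted in the rod-like files and 261 and 278 in the normal files. These correspond to 719.7 and 700.4 RPM in rod-like and 412 and 427 RPM in normal apices, and the groups did not overlap. The ratio of rod-like to normal was 1.69 (95% interval 1.46 to 1.97), with a log2 fold change of 0.76 and an adjusted p of 6.97e-17 in edgeR's quasi-likelihood test.

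The row named bna-miR171gf had 228 and 234 reads in rod-like files, against 150 reads in normal replicate 1 and a mean of 160.5 over both normal files. Its levels were 327 and 337 RPM in rod-like and 237 and 263 RPM in normal apices, again without overlap. The ratio was 1.33 (1.08 to 1.63), with a log2 fold change of 0.41 (edgeR adjusted p = 0.000605). This call was lost in DESeq2's Wald test (adjusted p = 0.122), where the background of higher calls was 9.48%, and without normal replicate 1 (log2 fold change 0.34, edgeR adjusted p = 0.0698), where it was 12.3%.

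The least abundant form, bna-miR171i, had 154 and 162 reads in rod-like files and 122 and 117 reads in normal files. Levels were 221 and 233 RPM in rod-like and 192 and 179.9 RPM in normal apices, without overlap. Its ratio of 1.22 had an interval, drawn at the mean count of 2 files, that includes 1 (0.955 to 1.56). An interval from the reads of both files together would be narrower and was not computed. In the edgeR test bna-miR171i was not called (log2 fold change 0.29, unadjusted p = 0.0202, adjusted p = 0.0674).

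**Figure D2:**
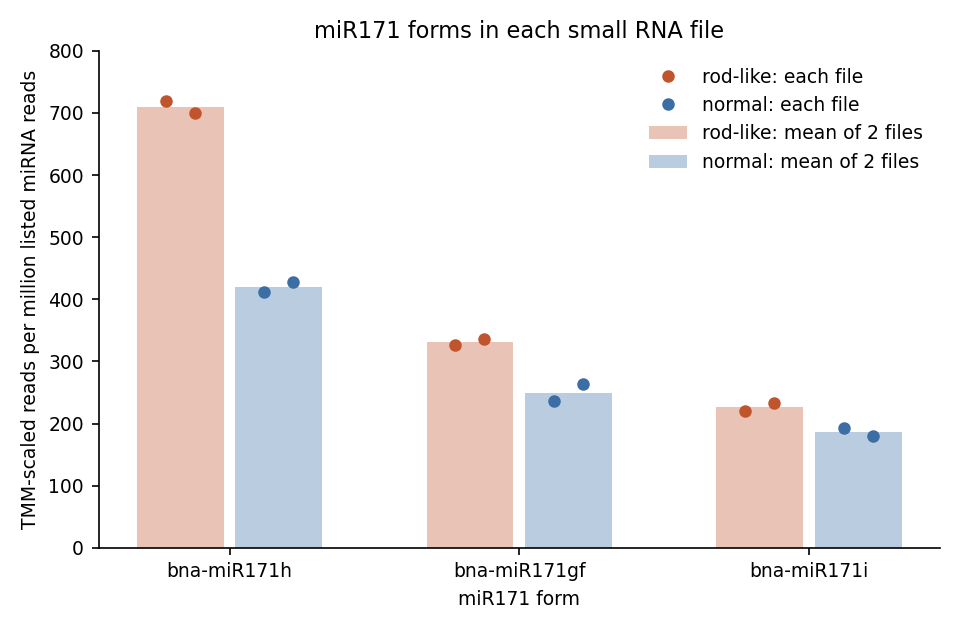
Level of each miR171 form (TMM-scaled RPM), with bars for the mean of the 2 files of a plant type and points for each file. For bna-miR171h the rod-like files sit at 719.7 and 700.4 RPM, against 412 and 427 RPM in normal files, and the other forms differ less.

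The count of called members was 2 of 3, both higher, where 16.6% of all 391 miRNAs tested were called higher and 28.1% were called in either direction. Among the 65 known miRNAs tested, 52.3% were called higher and 16.9% lower with TMM scaling on all miRNAs. With scaling on known miRNAs alone, 1 of the 3 members was called higher, where 32.3% of known miRNAs were called higher and 33.8% lower. All 3 members had rod-like files above both normal files with TMM scaling on all miRNAs, as did 30.7% of the 391 miRNAs tested. That share was not computed for known miRNAs alone. Under this scaling 47 of the 65 known miRNAs had a log2 fold change above 0, against 192 of all 391. The median log2 fold change was 0.41 over the miR171 forms, 0.41 over known miRNAs and -0.01 over all miRNAs tested. The value of bna-miR171gf was thus that of the middle known miRNA. Of the 65 known miRNAs, 15 had a larger log2 fold change than bna-miR171h, 31 a larger one than bna-miR171gf and 37 a larger one than bna-miR171i.

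**Figure D3:**
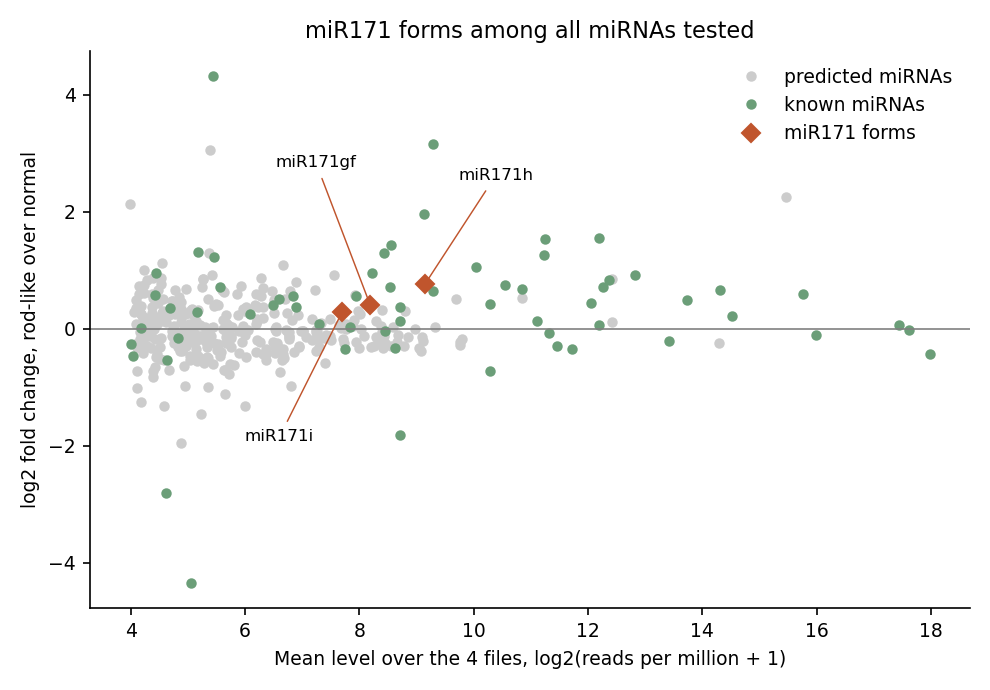
Log2 fold change of rod-like over normal against the mean level of every miRNA tested, log2(RPM + 1), with miR171 forms as diamonds, other known miRNAs in green and predicted miRNAs in grey. With TMM on all miRNAs the miR171 forms lie above 0 at 0.76, 0.41 and 0.29, inside the spread of known miRNAs of like abundance, and bna-miR171gf and bna-miR171i fall below 0 when scaled on known miRNAs alone.

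Summed over the 3 rows, the family had 884 and 883 reads in the rod-like files and 533 and 566 in the normal files. The summed level was 1269 RPM in rod-like and 855 RPM in normal apices, a ratio of 1.48 (1.33 to 1.65). In a fit with all known miRNAs summed by family, the log2 fold change was 0.59 (edgeR adjusted p = 6.44e-20), where 14.4% of 362 entries were called higher. The family took 0.124% of listed counts (0.116 to 0.132) in rod-like and 0.0876% (0.0804 to 0.0952) in normal files.

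The order of the forms was bna-miR171h, bna-miR171gf, bna-miR171i in each of the 4 files. These are reads per form and were not divided by length, which is not given for these forms. The ratio of bna-miR171h to bna-miR171gf was 2.14 (1.83 to 2.51) in rod-like and 1.68 (1.38 to 2.05) in normal apices. For bna-miR171gf over bna-miR171i it was 1.46 (1.19 to 1.80) in rod-like and 1.34 (1.05 to 1.72) in normal apices, so neighbours in the order differed beyond counting error within each plant type.

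The make-up of the family does not depend on any scaling between files. The share of bna-miR171h in miR171 counts was 56.0% (52.6 to 59.3) in rod-like and 49.0% (44.8 to 53.3) in normal apices. It was 56.8% and 55.2% in the single rod-like files, and 49.0% and 49.1% in the single normal files. The shares of bna-miR171gf were 26.1% (23.3 to 29.2) in rod-like and 29.2% (25.4 to 33.2) in normal apices, and those of bna-miR171i were 17.9% (15.4 to 20.6) in rod-like and 21.7% (18.4 to 25.4) in normal apices. Files did not overlap between plant types for any form. The counting intervals did overlap for all 3, but they were drawn at the mean family count per file (883.5 in rod-like and 549.5 in normal). Intervals from the reads of both files together would be narrower and were not computed. The overlap therefore does not settle whether the make-up differed, and the difference in make-up was not tested.

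**Figure D4:**
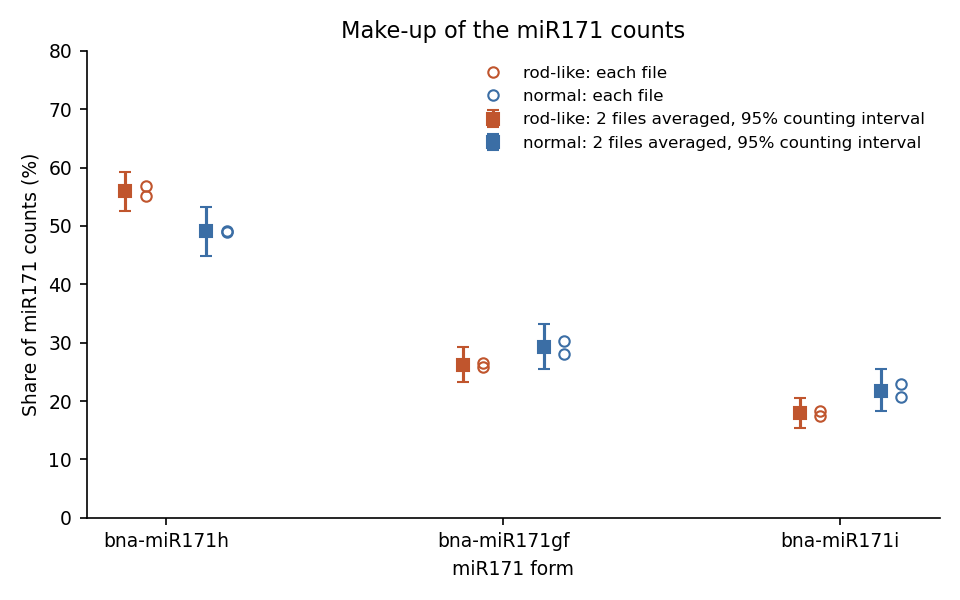
Share of each form in the miR171 counts (percent), as squares with 95% Clopper-Pearson counting intervals for the mean of 2 files, and open circles for each file. The share of bna-miR171h is 56.0% in rod-like and 49.0% in normal apices, and at the mean count the intervals of the plant types overlap.

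The direction for bna-miR171gf and bna-miR171i rested on the scaling. Scaling on the known miRNAs alone shifted the median of all log2 fold changes by -0.49. In that fit bna-miR171gf lay at -0.087 (edgeR adjusted p = 0.505) and bna-miR171i at -0.21 (adjusted p = 0.146), while bna-miR171h was still called higher, at 0.26 (adjusted p = 0.00212), where 7.16% of miRNAs were called higher. Relative to the median known miRNA, the forms stood at 0.35 for bna-miR171h, at 0.00 for bna-miR171gf and at -0.12 for bna-miR171i with TMM on all miRNAs. For the family sum, scaling on known miRNAs was computed anew on counts summed by family, so it differs from the scaling of the forms. The sum lay at 0.32 there (edgeR adjusted p = 1.87e-07), above the value of each form. Its value under the scaling of the forms was not computed, so whether its call would hold there is not known.

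**Figure D5:**
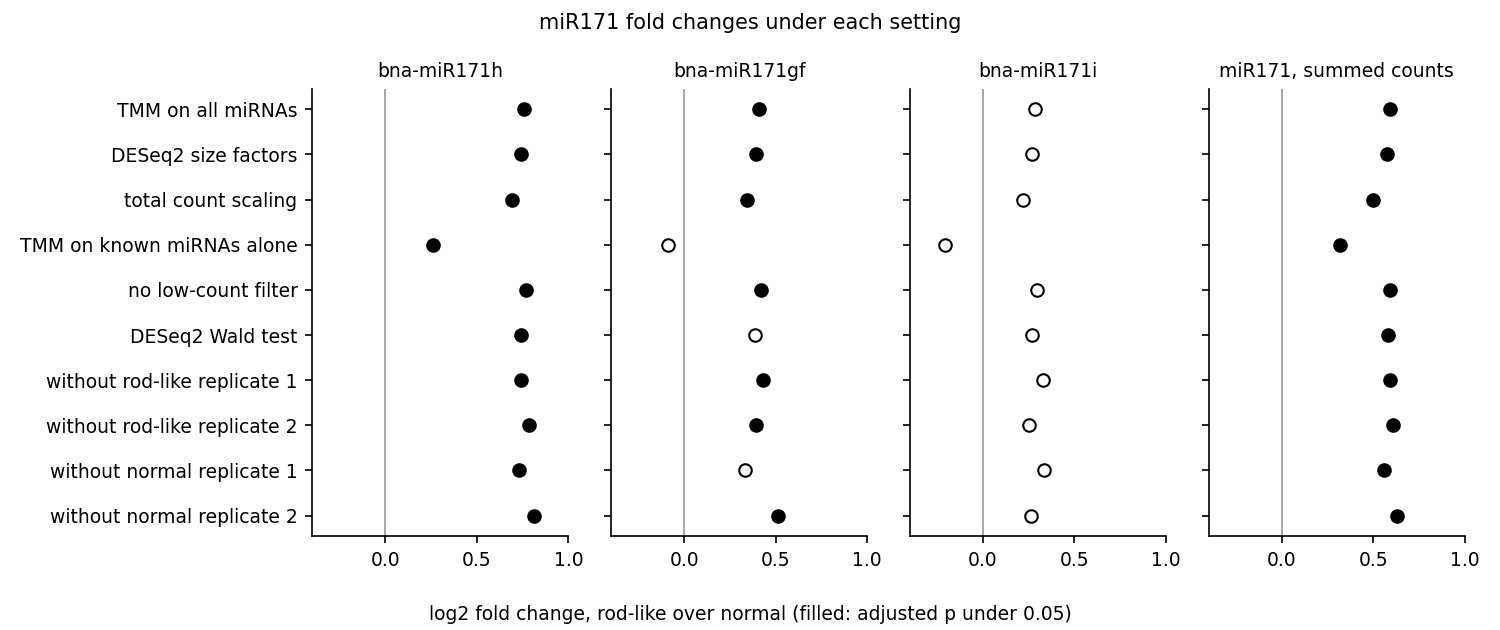
Log2 fold change of rod-like over normal for each miR171 form and for the summed counts (panels) under each scaling, test and left-out file (rows), with filled points for an adjusted p under 0.05. Scalings of the summed counts were computed on family sums, so in a given row they differ from those of the forms. Points for bna-miR171h and the summed counts are filled and above 0 in all rows shown, while those of bna-miR171gf and bna-miR171i fall below 0 when scaled on known miRNAs alone.

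By level over the 4 files (Euclidean distance of log2 RPM with a pseudocount of 1), the known miRNAs nearest to bna-miR171h were bna-miR162b, at a distance of 0.363, and bna-miR399ab, at 0.888. Those nearest to bna-miR171gf were bna-miR156j (0.547) and bna-miR394ab (0.55), and those nearest to bna-miR171i were bna-miR399e (0.411) and bna-miR394ab (0.542). The level of bna-miR162b was 762 RPM in rod-like and 486 RPM in normal apices (log2 fold change 0.65, edgeR adjusted p = 1.98e-14). For bna-miR399ab it was 472 RPM in rod-like and 365 RPM in normal apices, and the log2 fold change was 0.37 (edgeR adjusted p = 0.000218). For bna-miR399e, the nearest to bna-miR171i, levels of 229.7 RPM in rod-like and 225 RPM in normal apices did not pass the test (log2 fold change 0.03, edgeR adjusted p = 0.904). For bna-miR394ab, which targets an F-box message that limits stem cell competence in Arabidopsis, it was 293 RPM in rod-like and 198 RPM in normal apices (log2 fold change 0.57, edgeR adjusted p = 8.54e-06).

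Other miRNAs of the shoot tip were called in both directions. The list took the miR164, miR165, miR166, miR319 and miR394 families, which act on organ boundaries, polarity and the meristem. It had 7 tested members, none of them a miR165. With TMM scaling on all miRNAs, 3 were called higher, 3 were called lower and 1 was not called, with a median log2 fold change of -0.01. In that fit 16.6% of all miRNAs were called higher and 11.5% lower, and of known miRNAs 52.3% were called higher and 16.9% lower. With scaling on known miRNAs alone, an alternative for these lists chosen after seeing the data, 2 were called higher and 4 lower, with a median of -0.51. There 7.16% of all miRNAs were called higher and 43.5% lower, and of known miRNAs 32.3% were called higher and 33.8% lower. The extremes were bna-miR164a, which targets CUC boundary genes, at 7004 RPM in rod-like and 2384 RPM in normal apices (ratio 2.94, 2.77 to 3.11), and bna-miR319b, at 2.87 RPM in rod-like and 61.5 RPM in normal apices (ratio 0.0467, 0.00547 to 0.180, from a mean of 2 counts in rod-like and 39.5 counts in normal files).

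Members of miR156 and miR172 set the age of the shoot. In Arabidopsis, SPL factors targeted by miR156 bind the HAM-type targets of miR171. Of 7 members tested, 6 were called higher and none was called lower (0) with TMM scaling on all miRNAs, where 16.6% of all miRNAs were called higher, with a median log2 fold change of 0.60, against 0.41 over known miRNAs, of which 52.3% were called higher. The count depended on the scaling: on known miRNAs alone, 4 of the 7 were called higher and 2 lower, with a median of 0.10, where 32.3% of known miRNAs were called higher and 33.8% lower. The largest was that of bna-miR156j, at 391 RPM in rod-like and 203 RPM in normal apices (ratio 1.93, 1.56 to 2.39), and the smallest that of bna-miR156h, at 2481 RPM in rod-like and 2604 RPM in normal apices (ratio 0.953, 0.890 to 1.02).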

How the data were processed

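For the small RNA libraries, gel-purified RNA of 18 to 30 nt was ligated to adaptors, amplified and sequenced, and degradome libraries were made by ligating free 5′-monophosphate ends of polyadenylated RNA, per the labels' protocols. The authors deposited whole-number counts per known or predicted miRNA, and per miRNA-target record an alignment score, position, category and caller's P-value, per the labels inside the records. No mapper, counting rule or target caller is named there.

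The members and lists were chosen with earlier results of these data known. The test was edgeR 4.0.16 (R 4.3.3), quasi-likelihood, with TMM scaling, filterByExpr and robust fitting over all 391 miRNAs passing the filter, all 3 miR171 forms among them, with Benjamini-Hochberg adjustment at 0.05. Alternatives were 3 scalings, no filter, DESeq2 1.42.0, a replicate block and each file left out. Ratios use the mean count of the 2 files with exact conditional 95% intervals. Intervals cover counting error only, not differences between plants or pools. They treat reads as independent, although PCR copies of 1 molecule cannot be told apart. The fit was tested on simulated data. Members named follow the family number, and other miRNAs are the 2 nearest in level to each form and the extremes of each list. Pairing was recomputed from the aligned sequences and equalled the deposited pairing line in all 44 records. Tables were made with Python 3.11.15, pandas 2.3.3 and SciPy 1.17.1.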

Additional observations from a re-analysis of the deposited data

How the results depend on the processing

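The higher level of bna-miR171h kept its direction and its call under all alternatives run. That of the summed family did so only with scalings computed on family sums, the ones run for it. For the summed family, scaling on known miRNAs alone was computed on family sums, which is a different scaling from that of the forms. The family sum under the scaling of the forms was not computed, so whether its call would hold there is not known. Scaled on known miRNAs alone, bna-miR171gf reversed to -0.087 and bna-miR171i to -0.21 on the log2 scale, 1 member was called in place of 2, and over all miRNAs 198 were called in place of 110, with 28 higher and 170.0 lower against 65 higher and 45 lower. With DESeq2's Wald test bna-miR171gf lay at 0.39 and was not called, leaving 1 member, and 57 miRNAs were called. Leaving out 1 file at a time gave log2 fold changes of 0.73 to 0.81 for bna-miR171h, 0.34 to 0.51 for bna-miR171gf, 0.25 to 0.33 for bna-miR171i and 0.56 to 0.63 for the family, 1 to 2 called members and 71 to 87 called miRNAs, and the lowest counts were those without normal replicate 1. With a replicate block bna-miR171gf lay at 0.41 (edgeR adjusted p = 0.0612), leaving 1 called member, and 53 miRNAs were called. Same-numbered files share only a number: their deviations correlated at 0.0131 over 392 miRNAs. Why the calls were lost was not tested. Restricted to category 0, the share of miR171 pairs listed in both degradome libraries moved to 100%, from 83.3%, by leaving out the category 1 records. Mean counts of 119.5 for bna-miR171i and 160.5 for bna-miR171gf in normal files limit what differences can be seen. For the lists of shoot tip and age miRNAs, 3 scalings were added after seeing the data, and those other than known miRNAs alone left the counts called higher at 3 and 6, with 4 shoot tip members called lower under both and 0 to 1 age members.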
